A study of Danio rerio with 16 samples.

Results

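The Hox genes are the homeobox genes of the hoxa, hoxb, hoxc and hoxd clusters. They were taken from the deposited transcript table by their symbol (hox, a letter from a to d, then a number), and transcripts were summed by Ensembl gene ID. This gave 50 gene IDs with 48 symbols among 31812 gene IDs, and 81 of the 57264 transcripts. hoxa9a and hoxc10a each have 2 gene IDs, and the less abundant one is called the second ID here. The larvae were zebrafish of the WIK strain at 5 days postfertilization (dpf). TP larvae were held for 6 h in 1.6 µM triptolide (TP), a diterpenoid that blocks transcription by RNA polymerase II, and control larvae in vehicle (0 µM TP). Each group had 8 pools of 30 whole larvae, each pool from a dish of its own (n = 8).

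Hox genes encode transcription factors that give cells their position along the head to tail axis. Within a cluster they lie in the order in which they are used along the body, so that low numbers (paralog groups) act in the hindbrain and pharyngeal arches, middle numbers in the trunk and high numbers in the tail and fins. Genes with the same number in different clusters are paralogs, and in teleosts an extra genome duplication left a and b copies of several of them. In larvae their transcripts are found mainly in the hindbrain, spinal cord, somites, pharyngeal arches and fins, so each is a small part of the RNA of a whole animal.

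The 50 genes fell in 7 clusters on GRCz10. hoxaa lies on chromosome 19 from 20156555 to 20214801 and holds 7 of the gene IDs. hoxab lies on chromosome 16 from 21090085 to 21123364 with 5, and hoxba on chromosome 3 from 23523685 to 23640594 with 11. hoxbb lies on chromosome 12 from 27026249 to 27051474 with 4. hoxca lies on chromosome 23 from 35954141 to 36092185 with 12, and hoxcb on chromosome 11 from 2101192 to 2214269 with 4. hoxda lies on chromosome 9 from 1936252 to 1989526 with 7. The annotated spans of 18 Hox genes overlap that of another Hox gene, and the sources used here do not say if strand was used in counting. Reads were aligned to transcripts, so only exon sequence that neighbours share could be placed on either, and such sharing was not examined.

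Library totals ran from 26631852 to 41093922 counts in TP and from 19679120 to 75490916 in control libraries, of which 5472 to 8766 in TP and 4976 to 23278 in control libraries were Hox counts. Defining markers of 12 cell types, from skeletal muscle to photoreceptors, were detected, as a whole larva should hold, and 0 of them were at 0 in all libraries. Levels are in CPM, the usual unit of counts relative to the library total. Groups were compared by the quasi-likelihood test of edgeR at an adjusted p of 0.01 or less over all 24462 tested genes, with library totals as the scaling. SE is the standard error of a log2 fold change. The median log2 fold change of all tested genes was -0.35 with this scaling and -0.00107 with TMM factors, which centre most genes on no change. Calls and counts are with library totals unless TMM factors or DESeq2 are named. DESeq2 was run with its own scaling between libraries, under which the median of all tested genes was 0.0049. Libraries 5 to 8 of both groups carried 3.16% to 6.42% of their counts on si:dkey-153m14.1, more than the other libraries, and the Hox calls within low and high shares are given at the end. In whole larvae, fewer cells that express a gene and less of its RNA per cell cannot be told apart.

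All 50 Hox genes had enough counts to be tested. In TP larvae 24 were down-regulated (48.0%, against 41.9% of all tested genes) and 1 was up-regulated (against 4.59% of all), while 25 did not pass. Of the 11 genes of paralog groups 4 to 6, a grouping chosen after the values were seen, 10 were down-regulated, and hoxb5b, hoxc5a and hoxc13a had the lowest fold changes of the family. The up-regulated gene was hoxb1a, the gene of rhombomere 4 identity and facial motor neurons. The median log2 fold change of the Hox genes was -0.40, which is 0.05 below that of all genes. A negative value was found for 44 of the 50. All TP libraries lay below all control libraries for 13 Hox genes, as for 20.9% of all tested genes, and for 0 did they all lie above, as for 1.90% of all. As a family the Hox genes were close to the background. Their log2 fold changes were spread, as were those of all tested genes (lower and upper quartiles of -0.64 and -0.07). Differences among the members were tested only for duplicate pairs.

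**Figure D1:**
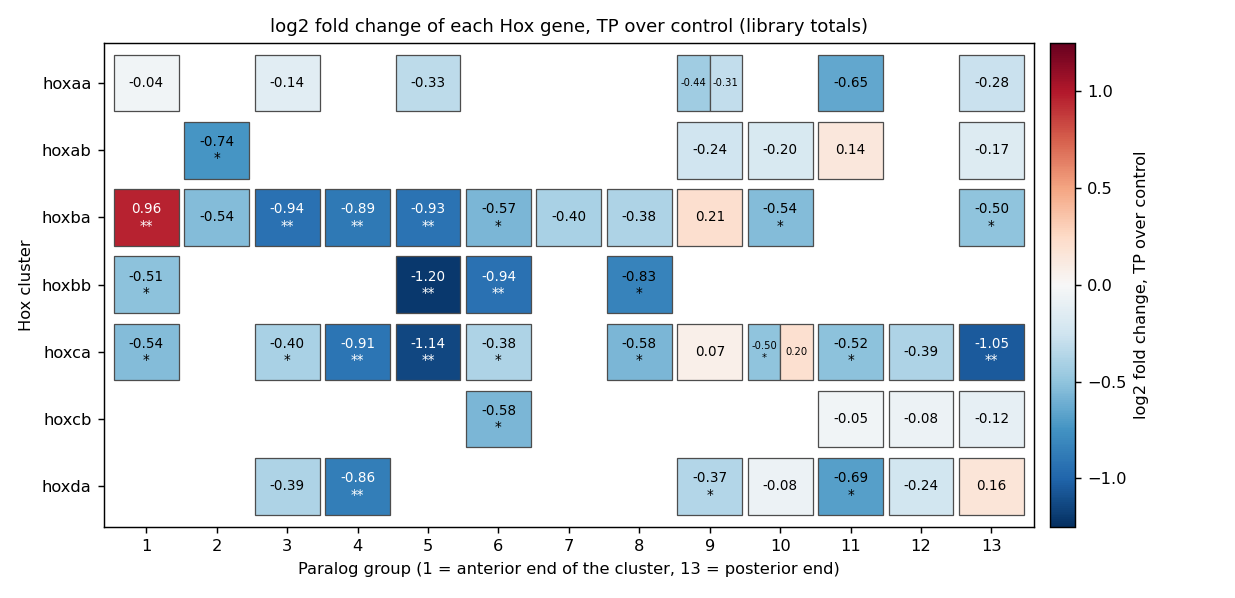
Each box is a Hox gene ID, placed by its cluster (vertical axis) and paralog group (horizontal axis) and coloured by its log2 fold change in TP over control with library totals (n = 8 each). One star marks a gene that passed the test with library totals, and a pair of stars one that also passed in the same direction with TMM factors; with TMM factors 13 genes, among them hoxaa and hoxcb genes near 0, take the opposite sign. The values run between -1.20 for hoxb5b and 0.96 for hoxb1a.

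With TMM factors 9 Hox genes were lower (against 16.5% of all tested genes) and 4 were higher (against 15.9%). All 9 were also lower with library totals. They were hoxb5b, hoxc5a, hoxc13a, hoxb6b, hoxb3a, hoxb5a, hoxc4a, hoxb4a and hoxd4a. hoxb1a was higher under both scalings, and hoxb9a, hoxa11b and the second hoxc10a ID were higher with TMM factors only. The other 15 genes that were lower with library totals kept a negative log2 fold change with TMM factors, between -0.49 for hoxb8b and -0.02 for hoxd9a, without passing.

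Paralog groups 5 and 4, of the posterior hindbrain and anterior trunk, had the lowest median fold changes. Of all tested genes 41.9% were lower. The members of paralog group 4 pattern the posterior hindbrain and the adjoining spinal cord. In this group 3 of 3 listed genes were lower, with a median log2 fold change of -0.89. No gene ID of hoxaa carried a group 4 symbol. In group 5, whose mouse members specify phrenic motor neurons, 3 of 4 were lower with a median of -1.03. In group 6, which marks the anterior trunk, 4 of 4 were lower with a median of -0.57. All genes of groups 4 and 5 that passed with library totals also passed with TMM factors, and hoxb6b did so in group 6. hoxa5a, in hoxaa, was the member of these groups that did not pass, with a log2 fold change of -0.33 (adjusted p = 0.034).

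hoxb5b (ENSDARG00000054030, chromosome 12 from 27038299 to 27040375), which limits the size of the heart field downstream of retinoic acid in zebrafish embryos, ran from 4.39 through a median of 5.20 to 7.06 CPM in TP libraries, against 10.1, 12.1 and 15.0 CPM in control libraries. The groups did not overlap, and the highest TP library lay well below the lowest control library. Its fold was 0.435, with a log2 fold change of -1.20 (SE 0.10, adjusted p = 7.03e-09) and of -0.86 with TMM factors (adjusted p = 3.67e-08). hoxc5a (ENSDARG00000070340, chromosome 23 from 36019935 to 36021708) ran from 1.67 through 2.31 to 3.41 CPM in TP libraries, against 4.46, 5.30 and 6.46 CPM in control libraries. Again the groups did not overlap. The log2 fold change was -1.14 (SE 0.16, adjusted p = 6.06e-06) and -0.80 with TMM factors.

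hoxd4a (ENSDARG00000059276, chromosome 9 from 1947668 to 1950347), a hindbrain gene that responds to retinoic acid, ran from 4.51 through 5.04 to 6.40 CPM in TP libraries, against 6.90, 9.45 and 11.1 CPM in control libraries. It had the lowest fold change of hoxda, at -0.86 (SE 0.11, adjusted p = 9.48e-07) and -0.51 with TMM factors. hoxb4a and hoxc4a, at -0.89 and -0.91, lay close to it. hoxb4a did not overlap between the groups, while for hoxc4a 7 of the 8 TP libraries lay below all control libraries. hoxb5a was at -0.93 and hoxb6b at -0.94, both without overlap. hoxb6a (-0.57), hoxc6b (-0.58) and hoxc6a (-0.38) were lower with library totals only, and their groups overlapped.

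**Figure D2:**
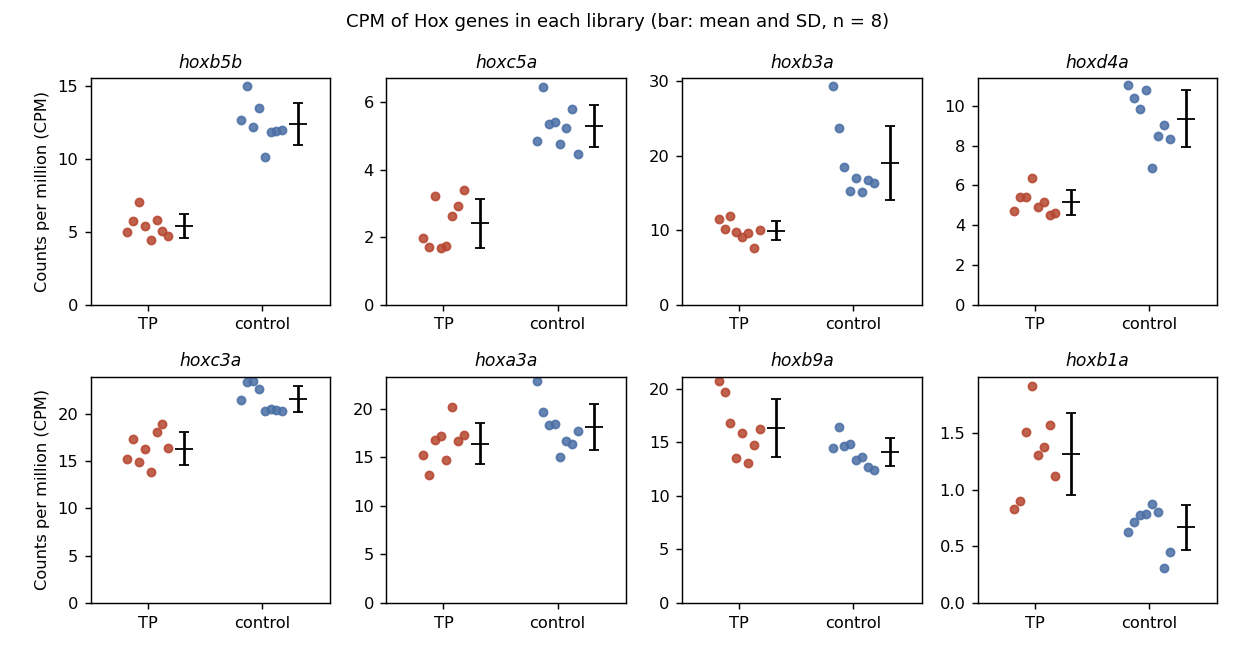
CPM (vertical axis, from 0) of 8 Hox genes in every TP library (left) and control library (right), with the mean and SD of each group beside the points (n = 8). The TP and control libraries are apart for hoxb5b, hoxc5a, hoxb3a, hoxd4a and hoxc3a and overlap for hoxa3a, hoxb9a and hoxb1a. hoxb1a is the gene whose TP libraries lie mostly above.

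The anterior genes of paralog groups 1 to 3 did not move together. hoxb3a (ENSDARG00000029263, chromosome 3 from 23567486 to 23618858), a gene of rhombomeres and the pharyngeal region, had the lowest log2 fold change of hoxba. It ran from 7.66 through 9.90 to 11.8 CPM in TP libraries, against 15.2, 16.9 and 29.3 CPM in control libraries, with no overlap. The log2 fold change was -0.94 (SE 0.13, adjusted p = 5.38e-06) and -0.57 with TMM factors. Its span covers hoxb4a, hoxb5a and hoxb6a. hoxc3a (ENSDARG00000070339, chromosome 23 from 35988416 to 36050568), whose span overlaps those of 6 other Hox gene IDs, ran from 13.8 through 16.3 to 18.8 CPM in TP libraries, against 20.2, 21.0 and 23.4 CPM in control libraries. The groups were apart, but the log2 fold change was smaller, at -0.40 (SE 0.07, adjusted p = 1.12e-04), and with TMM factors it was -0.06 and did not pass.

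hoxa3a (ENSDARG00000103862, chromosome 19 from 20181999 to 20207294), by contrast, ran from 13.2 through 16.7 to 20.2 CPM in TP libraries, against 15.0, 18.0 and 22.8 CPM in control libraries. Its groups overlapped, and its log2 fold change of -0.14 (SE 0.09, adjusted p = 0.193) did not pass and turned to 0.21 with TMM factors. hoxd3a did not pass either, at -0.39, and was at -0.17 without control library 1. The most abundant hoxa3a transcript, ENSDART00000169074 (20194616 to 20196422), shares no span with ENSDART00000170662 (20204486 to 20207294). Whether all transcripts under the hoxa3a ID belong to 1 gene was not examined. In group 2, hoxa2b (ENSDARG00000023031, chromosome 16 from 21120854 to 21123364), the selector of the second pharyngeal arch, was the lowest gene of hoxab. It ran from 1.28 through 2.27 to 2.71 CPM in TP libraries, against 2.51, 3.50 and 5.18 CPM in control libraries, and 6 TP libraries lay below all control libraries. Its log2 fold change was -0.74 (SE 0.16, adjusted p = 5.32e-04), and -0.40 with TMM factors, which did not pass. hoxb2a, at -0.54, did not pass with library totals (adjusted p = 0.0173).

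Group 1 held the up-regulated gene. hoxb1a (ENSDARG00000008174, chromosome 3 from 23638350 to 23640594) had CPM of 0.831, 0.903, 1.51, 1.92, 1.31, 1.38, 1.58 and 1.12 in TP libraries 1 to 8, against 0.628, 0.715, 0.780, 0.784, 0.878, 0.807, 0.305 and 0.453 in control libraries 1 to 8. In TP, 7 of the 8 libraries lay above all control libraries. The gene was rare, with 372 counts in all TP libraries together and 194 in all control libraries. Its log2 fold change was 0.96 (SE 0.22, adjusted p = 0.00101), a fold of 1.95, and 1.30 with TMM factors (adjusted p = 5.81e-05).

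hoxb1b (ENSDARG00000054033, chromosome 12 from 27049780 to 27051474), its duplicate, which acts earlier in hindbrain segmentation, ran from 2.10 through 2.95 to 3.51 CPM in TP libraries, against 3.35, 4.01 and 6.10 CPM in control libraries. It was the highest gene of hoxbb and was still lower with library totals, at -0.51 (SE 0.14, adjusted p = 0.00363), and at -0.16 with TMM factors, which did not pass. hoxc1a, at -0.54, was lower with library totals without overlap. hoxa1a (ENSDARG00000104307, chromosome 19 from 20213166 to 20214801) was the highest gene of hoxaa. It ran from 1.35 through 1.43 to 1.92 CPM in TP libraries, against 1.12, 1.60 and 1.94 CPM in control libraries, with a log2 fold change of -0.04 (SE 0.16, adjusted p = 0.839) that turned to 0.32 with TMM factors and passed under neither scaling.

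Among the trunk genes of groups 7 and 8, hoxb7a (-0.40) and hoxb8a (-0.38) did not pass. hoxc8a, a gene of brachial motor neurons in the mouse, was lower without overlap at -0.58, and hoxb8b was lower at -0.83. Neither passed with TMM factors.

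The posterior genes of groups 9 to 13, which pattern the posterior trunk, tail and fins, held 25 genes. By edgeR 7 of these were lower (28.0%) and 0 higher, against 41.9% and 4.59% of all tested genes. At an unadjusted p under 0.05 edgeR gave 1 higher. At the adjusted threshold DESeq2, with its own scaling, gave 4 and limma, with library totals, gave 0. The share of all tested genes called by DESeq2 or limma was not counted, so these counts have no background. Among the others, 8 of 13 genes of groups 1 to 4 and 9 of 12 of groups 5 to 8 were lower. The difference between these classes was not tested. The median log2 fold changes were -0.24 for groups 9 to 13, -0.58 for groups 5 to 8 and -0.54 for groups 1 to 4, and only the first of these was above the median of all genes. With TMM factors 1 gene of groups 9 to 13 was lower and 3 were higher, against 16.5% and 15.9% of all tested genes.

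Group 9 held the most abundant posterior gene. hoxb9a (ENSDARG00000056023, chromosome 3 from 23546803 to 23551888) ran from 13.1 through 16.0 to 20.7 CPM in TP libraries, against 12.4, 14.07 and 16.4 CPM in control libraries. The groups overlapped, with 3 TP libraries above all control libraries. The log2 fold change was 0.21 (SE 0.10, adjusted p = 0.0656) and did not pass with library totals, while with TMM factors it was 0.57 and passed (adjusted p = 8.97e-05). hoxd9a was lower with library totals, at -0.37 (adjusted p = 0.00881), a call that was lost without any 1 of 11 libraries (adjusted p between 0.0115 and 0.021). hoxa9a (-0.44, adjusted p = 0.0101), its second ID (-0.31), hoxa9b (-0.24) and hoxc9a (0.07) did not pass.

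In group 10, hoxc10a (-0.50) and hoxb10a (-0.54) were lower with library totals, and hoxa10b (-0.20) and hoxd10a (-0.08) did not pass. The second hoxc10a ID (ENSDARG00000096956, chromosome 23 from 35982622 to 35989431), the highest of hoxca, overlaps the first and ran from 1.77 through 2.23 to 3.20 CPM in TP libraries, against 1.81, 2.05 and 2.34 CPM in control libraries. It had a log2 fold change of 0.20 (SE 0.14, adjusted p = 0.216), and of 0.55 with TMM factors (adjusted p = 0.00512). Whether reads were split between the overlapping IDs was not examined.

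Group 11 and group 13, which work in the fin bud and the tail, were mixed. hoxd11a was lower without overlap, at -0.69, and hoxc11a likewise at -0.52, both with library totals only. hoxa11b (ENSDARG00000007009, chromosome 16 from 21098935 to 21101559), the highest of hoxab, ran from 3.95 through 5.13 to 5.95 CPM in TP libraries, against 3.66, 4.41 and 5.68 CPM in control libraries. Its log2 fold change was 0.14 (SE 0.11, adjusted p = 0.295), and 0.48 with TMM factors (adjusted p = 0.00177). Its duplicate hoxa11a (ENSDARG00000104162, chromosome 19 from 20164263 to 20165972), the lowest of hoxaa, ran from 0.526 through 0.784 to 0.960 CPM in TP libraries, against 0.610, 1.27 and 1.59 CPM in control libraries. At -0.65 (SE 0.21, adjusted p = 0.0125) it did not pass. hoxc11b (ENSDARG00000102631, chromosome 11 from 2121848 to 2125699), the highest of hoxcb, ran from 0.790 through 1.50 to 2.36 CPM in TP libraries, against 1.003, 1.71 and 2.03 CPM in control libraries, with a log2 fold change of -0.05 (SE 0.22, adjusted p = 0.859) that turned to 0.31 with TMM factors and passed under neither.

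hoxc13a, at -1.05 (SE 0.18, adjusted p = 5.88e-05), was the posterior gene with the lowest fold change and the only one of groups 9 to 13 that was lower under both scalings. It ran from 1.25 through 1.81 to 2.88 CPM in TP libraries, against 2.70, 3.89 and 5.03 CPM in control libraries, and 7 TP libraries lay below all control libraries. hoxb13a was lower with library totals, at -0.50, and hoxa13a (-0.28, and -0.12 without TP library 4), hoxa13b (-0.17) and hoxc13b (-0.12) did not pass. hoxd13a (ENSDARG00000059256, chromosome 9 from 1986019 to 1989526), a gene of the distal fin skeleton and the highest of hoxda, ran from 0.816 through 1.09 to 1.77 CPM in TP libraries, against 0.565, 1.004 and 1.34 CPM in control libraries. Its log2 fold change was 0.16 (SE 0.20, adjusted p = 0.519), or 0.034 without TP library 4, and it did not pass under either scaling. In group 12, hoxc12a (-0.39), hoxc12b (-0.08) and hoxd12a (-0.24) did not pass.

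Per kilobase of transcript, the most abundant Hox gene IDs were those of hoxa3a and hoxc3a. hoxa3a, summed over all transcripts of its ID, was at 13.3 ± 2.05 CPM per kb in TP and 15.5 ± 2.19 in control libraries (SD, n = 8). hoxc3a was at 11.5 ± 1.38 in TP and 15.2 ± 1.04 in control libraries. hoxb3a was at 4.49 ± 0.654 CPM per kb in TP and 8.82 ± 2.13 in control libraries. hoxc6a was at 6.26 ± 0.715 in TP and 8.22 ± 1.54 in control libraries, and hoxb9a at 6.50 ± 1.08 in TP and 5.59 ± 0.526 in control libraries. hoxa3a and hoxc3a lay within their spread of each other and above the rest, and of the other 3, hoxb3a had the lowest mean in TP libraries and, within the spread of hoxc6a, the highest in control libraries. hoxc6a (ENSDARG00000070343, chromosome 23 from 36016455 to 36018761) ran from 7.22 through 8.21 to 9.66 CPM in TP libraries, against 7.52, 10.9 and 13.2 CPM in control libraries, with 1 TP library below all control libraries. Among the 50 genes the mean level in a group ran from 0.303 to 21.5 CPM, and the median coefficient of variation over libraries was 17.4% in TP and 18.5% in control.

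Summed over the 50 genes, the Hox level was 205 ± 6.65 CPM in TP and 277 ± 28.0 CPM in control libraries (SD, n = 8), with a log2 ratio of -0.44 and no overlap (191.6 to 213 CPM in TP, 236 to 314 CPM in control libraries). The clusters differed in how far their sum was lower, which was not tested. They also differ in the paralog groups they hold, and hoxbb has no gene of groups 9 to 13. The hoxbb sum was 12.2 ± 1.08 CPM in TP and 23.8 ± 2.56 CPM in control libraries, a log2 ratio of -0.97 without overlap. In hoxbb 4 of 4 genes were lower, against 41.9% of all tested genes. The hoxba, hoxca and hoxda sums, at -0.46, -0.47 and -0.48, also did not overlap, though for hoxda the highest TP library (26.075 CPM) all but met the lowest control library (26.076 CPM). In these clusters 6 of 11, 9 of 12 and 3 of 7 genes were lower, against 41.9% of all tested genes. The share in hoxda (42.9%) was thus at that of all genes. With TMM factors the hoxbb ratio was -0.62, and those of hoxba, hoxca and hoxda were -0.10, -0.12 and -0.13.

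The hoxaa, hoxab and hoxcb sums overlapped between the groups at -0.21, -0.20 and -0.23, and with TMM factors they turned to 0.13, 0.14 and 0.12. By edgeR 41.9% of all tested genes were lower, and in hoxaa 0 of 7 (3 at an unadjusted p under 0.05). DESeq2, with its own scaling, gave 0 lower in hoxaa and limma gave 1, where the share of all genes was not counted. In hoxab 1 of 5 (hoxa2b) was lower and in hoxcb 1 of 4 (hoxc6b, ENSDARG00000101954, chromosome 11 from 2101192 to 2106905). hoxc6b ran from 1.63 through 2.06 to 2.90 CPM in TP libraries, against 2.32, 3.37 and 3.79 CPM in control libraries (log2 fold change -0.58, SE 0.14, adjusted p = 0.00196).

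**Figure D3:**
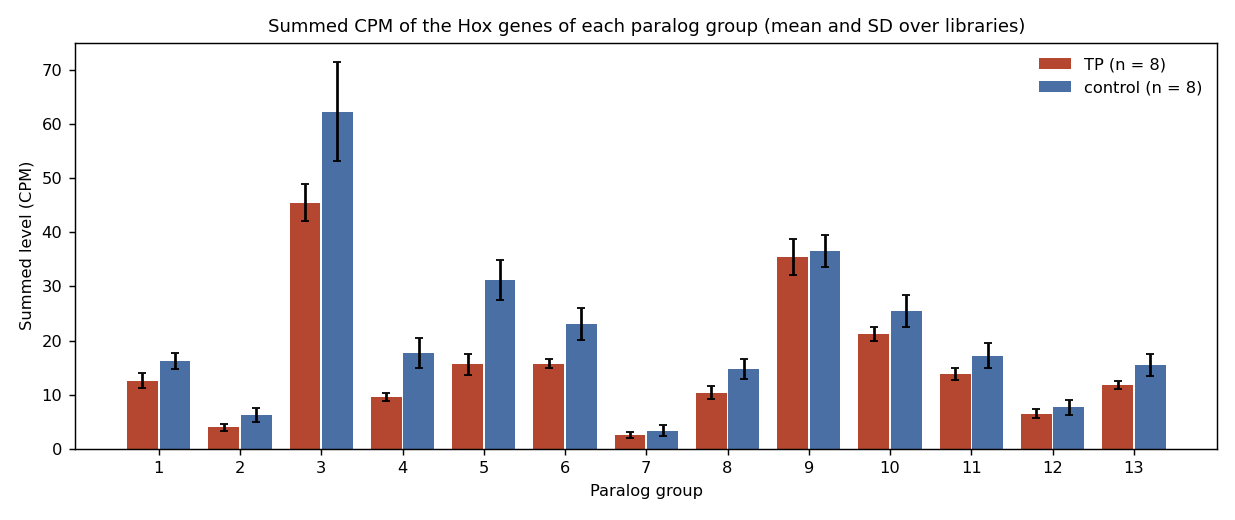
Summed CPM (vertical axis, from 0) of the Hox genes of each paralog group (horizontal axis), with the mean and SD over 8 TP (left bar) and 8 control libraries (right bar). The sum of group 5 is 15.6 CPM in TP against 31.2 CPM in control, while group 9 is at 35.5 CPM in TP against 36.6 CPM in control; with TMM factors the sums of groups 9 to 12 turn higher in TP.

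By paralog group, the sums of groups 3, 4, 5, 6, 8 and 13 did not overlap between TP and control libraries. Group 5 had the lowest ratio, with 15.6 ± 1.94 CPM in TP and 31.2 ± 3.69 CPM in control libraries, followed by group 4 with 9.62 ± 0.742 CPM in TP and 17.7 ± 2.77 CPM in control libraries. Group 9 was the closest to no difference, with 35.5 ± 3.33 CPM in TP and 36.6 ± 3.02 CPM in control libraries, a log2 ratio of -0.04 that turned to 0.31 with TMM factors. The share of a library's Hox counts that came from each class does not depend on the scaling between libraries. Groups 5 to 8 gave 21.6% ± 0.749 of Hox counts in TP (20.6% to 22.9%) and 26.1% ± 0.602 in control libraries (25.5% to 27.2%), without overlap. Groups 9 to 13 gave 43.4% ± 1.76 in TP and 37.0% ± 2.49 in control libraries, and groups 1 to 4 gave 35.0% ± 1.84 in TP and 36.9% ± 2.42 in control libraries, and both overlapped.

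The ratio of an a copy to its b copy within a library is also free of the scaling, except through the 0.05 CPM added to each copy. It was compared for 11 pairs of duplicates, with a 2-sided exact permutation test over libraries and adjustment over the 11 pairs. The hoxb1a to hoxb1b log2 ratio was -1.13 ± 0.49 in TP and -2.58 ± 0.50 in control libraries (SD, n = 8), without overlap, a difference of 1.45 (exact p = 1.55e-04, the smallest that the permutations can give, adjusted p = 0.0017). The hoxc13a to hoxc13b ratio was -0.29 ± 0.57 in TP and 0.69 ± 0.45 in control libraries, a difference of -0.98 (exact permutation test, adjusted p = 0.0137). The hoxa11a to hoxa11b ratio was -2.67 ± 0.41 in TP and -1.95 ± 0.39 in control libraries, a difference of -0.72 (exact permutation test, adjusted p = 0.0165). At the threshold of 0.01 used throughout, the hoxb1 pair passed. For the hoxb5 pair the difference was 0.28 (exact permutation test, adjusted p = 0.101), and for the other 7 pairs the adjusted p was 0.127 or more.

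**Figure D4:**
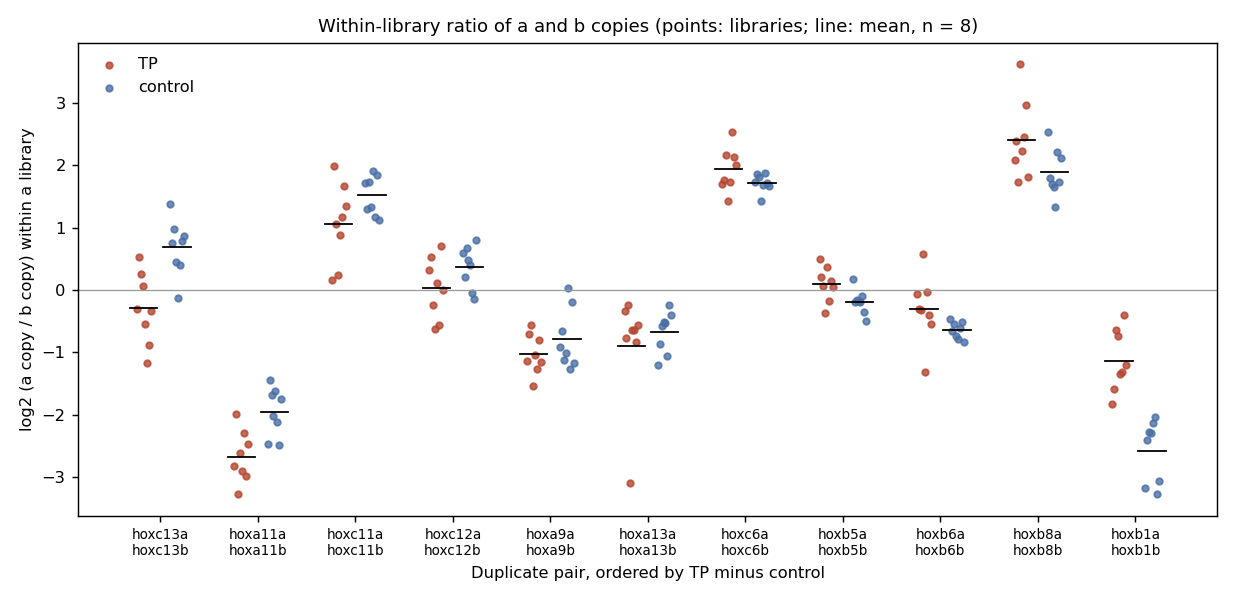
Log2 ratio of the a copy to the b copy of 11 duplicate pairs (vertical axis) in each TP (left points) and control library (right points), with the mean as a line (n = 8 each). The hoxb1 pair is the one whose TP and control libraries do not overlap, with TP between -1.82 and -0.40 and control between -3.26 and -2.04.

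Of the 81 Hox transcripts 78 were tested, and 32 were lower (against 36.7% of all tested transcripts) and 1 was higher (against 3.48%). With TMM factors 12 were lower and 7 higher, and the share of all transcripts with these factors was not counted. For 35 of the Hox genes 1 transcript is listed, so the gene and transcript counts are the same there. Transcripts were fitted apart from genes, so fold changes and adjusted p can differ slightly. With TMM factors in edgeR, hoxc9a passed as a transcript (adjusted p = 0.00991) and not as a gene (adjusted p = 0.0121). The 4 hoxb3a transcripts had log2 fold changes of -0.89, -1.05, -1.27 and -0.78, and the first 3 of these passed. Both hoxc5a transcripts were lower, at -1.04 and -1.45. In 6 cases a transcript of a down-regulated gene did not pass, and in 2 cases a transcript was lower while its gene did not pass. These were hoxa9a ENSDART00000168041 (-0.54, adjusted p = 0.00362) and hoxa3a ENSDART00000158987. The hoxa3a transcript was at 0.253 ± 0.139 CPM in TP and 0.622 ± 0.217 CPM in control libraries (SD, n = 8). It was lower with a log2 fold change of -1.32 (adjusted p = 0.00209). The most abundant hoxa3a transcript ENSDART00000169074 had -0.31 and ENSDART00000170662 had 0.13, and neither passed with library totals. With TMM factors in edgeR, ENSDART00000170662 was higher, at 0.49 (adjusted p = 0.00292). ENSDART00000158987 held 68 counts in TP and 174 in control libraries and with TMM factors did not pass (-0.98, adjusted p = 0.0221). Isoforms of a gene share reads, and how the aligner split those is unknown.

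The genes that work with or on the Hox genes were described as lists, each beside the 41.9% of all tested genes that were lower. With TMM factors 16.5% of all tested genes were lower and 15.9% higher. The TALE homeodomain proteins of the Pbx, Meis and Pknox families bind DNA together with Hox proteins. Of 14 tested, 11 were lower and 1 higher, with a median log2 fold change of -0.66, and 7 were lower and 3 higher with TMM factors. meis2b was at 11.1 ± 2.43 CPM in TP and 30.2 ± 10.5 CPM in control libraries (SD, n = 8, log2 fold change -1.44), and meis2a (-1.38) and pbx3b (-1.33) were close to it. These 3 were also lower with TMM factors. pknox1.2 was the up-regulated one, at 39.0 CPM in TP and 28.9 CPM in control libraries (log2 fold change 0.43, adjusted p = 2.70e-05).

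The Cdx, Evx, Gsx, Mnx and Pdx factors are the homeobox relatives of the Hox genes, some of them next to the clusters. Of 11 tested 6 were lower, 4 of them with TMM factors too, with a median of -1.34. evx1, an interneuron factor beside hoxaa, was lower under each of its 2 gene IDs, at -1.64 and -1.41, and evx2, beside hoxda, was at -1.41. The span of the first evx1 ID covers the whole hoxaa cluster. gsx2 was at -1.45. evx1 and gsx2 also passed with TMM factors, and evx2, at -1.01 (adjusted p = 0.0128), did not. cdx4, a known activator of posterior Hox genes, did not pass, at 0.24. On a list of upstream factors, most of them of the hindbrain, 5 of 12 tested gene IDs were lower, with a median of -0.53. Among these were nr2f1a (-1.37), gbx1 (-1.15) and gbx2 (-1.09). The list holds egr2a under 2 gene IDs, and also gdf11 and vgll2a, whose part upstream of Hox genes in the hindbrain was not examined. With TMM factors 4 were lower, and gbx1 was at -0.78 and did not pass (adjusted p = 0.0313). egr2b (-0.59) and mafba (-0.47), which control hoxa2, hoxb2 and hoxb3 genes in rhombomeres, did not pass.

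Retinoic acid switches on anterior Hox genes. Of 23 tested genes for its synthesis, degradation and receptors 12 were lower and 1 was higher, with a median of -0.37, close to that of all genes, and 8 were lower and 3 higher with TMM factors. The lowest were rxrbb, a retinoid X receptor, at -1.51, aldh1a2, the synthesis enzyme of the embryo, at -1.08, and rdh10a, a retinol dehydrogenase, at -1.06, and all 3 were lower with TMM factors too. rargb, a retinoic acid receptor within the span of the hoxcb cluster, was higher under both scalings, at 0.44 and, with TMM factors, at 0.78. Of 37 gene IDs of Polycomb group genes, which keep Hox genes silent, 19 were lower with a median of -0.40. Among these were cbx7a (-1.22) and jarid2a (-0.76), and 7 were lower and 1 higher with TMM factors. The list holds phc2b and kdm2bb under 2 gene IDs each, and both kdm2bb IDs were lower. Trithorax group and COMPASS genes keep Hox genes active, and their list holds 21 gene IDs, with kmt2ba under 2 of them. Of the 21, 14 were lower with a median of -0.53, led by setd1bb (-1.11), psip1 (-0.92) and men1 (-0.84). With TMM factors 4 were lower and 1 higher, and psip1 did not pass, at -0.56. In these last 2 lists 0 genes were higher by edgeR with library totals. At an unadjusted p under 0.05 that held for 1 Polycomb and 0 Trithorax genes. DESeq2, with its own scaling, gave 2 and 1 higher, and limma gave 0 in both. For DESeq2 and limma the share of all tested genes called was not counted.

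**Figure D5:**
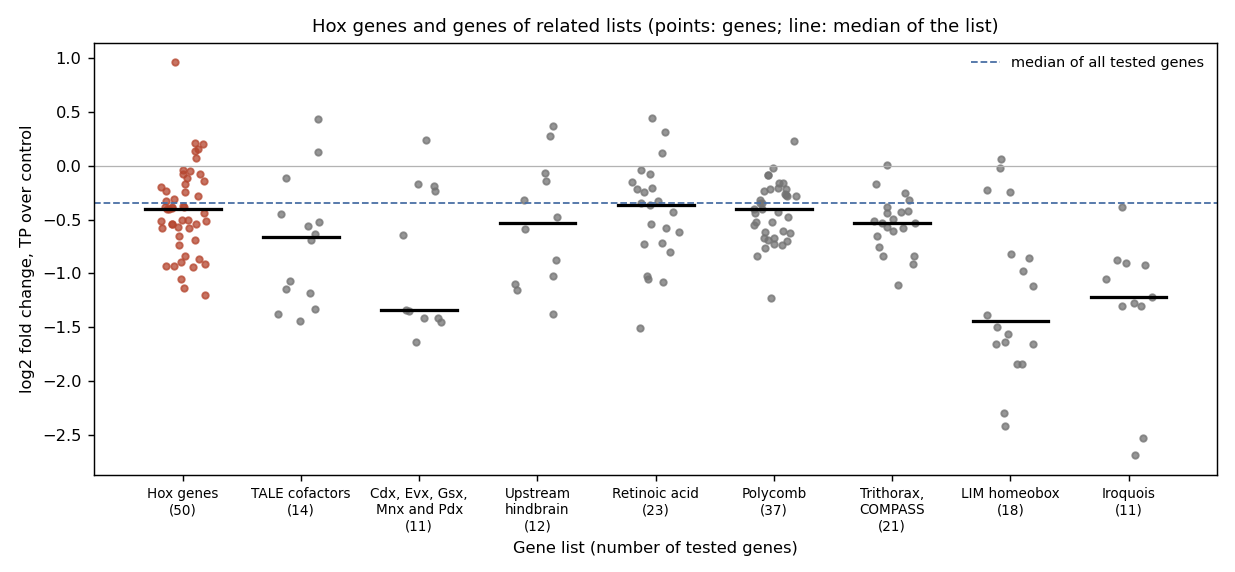
Log2 fold change in TP over control (vertical axis, library totals, n = 8 each) of each tested gene of the Hox list and of 8 related lists (horizontal axis), with the median of each list as a line and the median of all tested genes, -0.35, as a dashed line. The Hox median of -0.40 lies near the dashed line, and the LIM homeobox and Iroquois medians of -1.44 and -1.22 lie far below it; with TMM factors the median of all genes moves to -0.00107 and the Hox median to -0.05.

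As a comparison with other homeobox families of the nervous system, 13 of 18 tested LIM homeobox genes and 10 of 11 Iroquois genes were lower, and 13 and 9 with TMM factors. Their median log2 fold changes were -1.44 and -1.22, against -0.40 for the Hox genes, and the difference between families was not tested. The LIM genes were led by lhx1a at -2.42, isl1 at -2.29 and lhx6 at -1.85, and the Iroquois genes by irx4a at -2.68, irx6a at -2.53 and irx1a at -1.30. All 6 were lower with TMM factors. The lowest Hox gene, hoxb5b at -1.20, was thus near the median of the Iroquois genes.

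Of the 95 other genes within 200000 bases of a Hox cluster 68 were tested. With library totals 30 were lower (44.1%) and 4 higher (5.88%), against 41.9% and 4.59% of all tested genes. The median of the 68 was -0.34, near that of all genes. With TMM factors 10 were lower and 15 higher, against 16.5% and 15.9% of all tested genes. Around hoxbb, the cluster with the lowest sum, 9 of 14 were lower with a median of -0.43, against -0.89 for its own 4 Hox genes. Around hoxba 3 of 10 were lower and 2 higher with a median of 0.18, against -0.54 for its 11 Hox genes, and 6 of the 10 were higher with TMM factors. The 10 microRNA genes of the mir-10 and mir-196 families, all but dre-mir-10d within this distance of a cluster, held 8 counts in TP and 12 in control libraries in all. These were too few to test.

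Some markers of tissues in which Hox genes are used differed in TP larvae. The 6 listed markers of hindbrain and spinal motor neurons summed to 18.4 to 24.3 CPM in TP and 64.7 to 88.4 CPM in control libraries. Of these 5 of 5 tested were lower, against 41.9% of all tested genes. A large part of the sum was isl1, named above among the LIM genes, with means of 8.02 CPM in TP and 39.3 CPM in control libraries. The mean sums were 21.9 CPM in TP and 77.9 CPM in control libraries. The lowest group mean of a listed motor neuron marker was that of mnx1 in TP libraries, at 0.126 CPM, against 0.354 CPM in control libraries. Of 4 markers of glia and neural progenitors 3 were lower, with sums of 113 to 149 CPM in TP and 161 to 232 CPM in control libraries. Of 4 neuron markers 1 was lower, with overlapping sums of 229 to 349 CPM in TP and 272 to 587 CPM in control libraries. The sums also overlapped for neural crest and pigment (84.5 to 121 CPM in TP, 91.5 to 116 CPM in control libraries, 2 of 4 lower and 1 higher) and for cartilage (529 to 828 CPM in TP, 569 to 988 CPM in control libraries, 2 of 4 lower). Fin markers summed to 431 to 582 CPM in TP and 302 to 423 CPM in control libraries. Of these 2 were lower and 2 higher, against 41.9% and 4.59% of all tested genes. The median log2 fold change of the fin markers was -0.07. The lowest group mean among them was 1.53 CPM, for tbx5a, so the sum follows the more abundant markers. The 5 skeletal muscle markers were all higher, against 4.59% of all tested genes. The muscle sums were 31210 to 37002 CPM in TP and 25330 to 29530 CPM in control libraries. Marker calls with TMM factors were not counted. The part of these shifts in the Hox values was not tested.

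The libraries also differed in the share taken by si:dkey-153m14.1, from 0.900% to 4.06% in TP and from 0.548% to 6.42% in control libraries. Among the 2 TP and 4 control libraries under 2%, 4 Hox genes were lower and 0 higher by edgeR. Among the 6 TP and 4 control libraries at or over 2%, 10 were lower and 0 higher. The share of all tested genes called in either set was not counted, so these counts have no background beside them. At an unadjusted p under 0.05, 1 and 2 Hox genes were higher. hoxb1a kept its direction in both, at 1.23 (adjusted p = 0.0149) and 0.92 (adjusted p = 0.0284), without passing. All 24 genes that were lower in the full set had a negative log2 fold change in both. They were called from these same libraries, and the median of all tested genes was also negative, at -0.41 and -0.25.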

How the data were processed

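RNA of whole zebrafish larvae was sequenced as 16 pools from separate dishes, 8 TP and 8 control. The raw counts per Ensembl transcript (GRCz10) that the authors deposited are not normalized. They come from paired reads aligned to transcripts with Bowtie2, and the submitters' processing notes also name FastQC, SAMtools and limma, with versions not given in the sources used here. Reads shared by isoforms or gene copies may sit on any of them. All deposited counts are even, as when both mates are counted, so halved counts were tried.

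Counts were summed per gene ID, and transcripts without one stayed only in the totals. CPM per kb divides each transcript by its deposited length before summing. In R 4.3.3, edgeR 4.0.16 (quasi-likelihood, filterByExpr, library totals as the study's methods scale) compared the groups, with Benjamini-Hochberg adjustment over all 24462 genes and a threshold of 0.01. SE was taken from the fold change and its F statistic (log2 value over root F). The ratio of duplicates used CPM plus 0.05 and an exact permutation test. Sums, shares and list medians have no test. Alternatives were TMM factors, DESeq2 1.42.0, limma 3.58.1, other filters, totals, thresholds and gene values, a replicate block, both classes of si:dkey-153m14.1 share, and leaving out each library. The fit was tested on simulated data.

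Members, lists and tests were chosen with earlier results of these data known. Full values are given for the genes with the lowest and highest fold change in each cluster, the 5 most abundant per kb, every up-regulated member and the duplicate pair that differed most, and up to 3 changed genes of each related list. The other members are given by their fold change, except hoxc13a, whose library values were added after they had been seen. On halved counts, replicate pairs differed by more than sampling noise (chi-square per degree of freedom of at least 3.10 among TP and 2.86 among control libraries). Pairs of a control library from 1 to 4 with one from 5 to 8 ran from 19.1 to 84.2. Control pairs within either set reached at most 18.4. Pairs of TP library 3 or 4 with one from 5 to 8 ran from 18.1 to 30.8. The main fit had no term for these sets.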

Additional observations from a re-analysis of the deposited data

Results flagged for a closer look

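Of 100 sets of 8 libraries (50 Hox genes in each group), 10 held a library that stood apart from the other 7 by Dixon's test, where chance gives about 1 in 20 sets. All values are CPM. In TP library 4, hoxa1a was at 1.92 (others 1.35 to 1.60), hoxa13a at 0.295 (others 1.24 to 2.08) and hoxd13a at 1.77 (others 0.816 to 1.25). In TP library 1, hoxa2b was at 1.28 (others 2.08 to 2.71), and in TP library 7, hoxc4a was at 1.43 (others 2.31 to 2.90). In control library 1, hoxb1b was at 6.10 (others 3.35 to 4.14) and hoxd3a at 7.35 (others 2.44 to 4.01). In control library 2, hoxc1a was at 11.9 (others 9.28 to 9.93), in control library 3, hoxc10a was at 8.47 (others 6.07 to 7.04), and in control library 7, hoxa9a was at 4.78 (others 2.95 to 3.79). None of these 10 genes changed its call without the library concerned, but hoxd3a was then at -0.17 in place of -0.39, hoxa13a at -0.12 in place of -0.28 and hoxd13a at 0.034 in place of 0.16 (log2 fold changes).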

How the results depend on the processing

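The 24 lower genes kept their sign under every alternative fit, and hoxb1a kept a positive log2 fold change of 0.86 to 1.31. All of these fits use libraries from which the genes were called. TMM factors gave 9 lower and 4 higher, against 16.5% and 15.9% of all tested genes. DESeq2 gave 9 and 5, and its share of all tested genes was not counted. The libraries under 2% si:dkey-153m14.1 gave 4 lower and 0 higher, and those at or over 2% gave 10 and 0, with fewer libraries in each. The share of all tested genes called was not counted for either set. Without 1 library, 21 to 27 genes were lower and 1 was higher, and the median ran from -0.45 to -0.38. With TMM factors and DESeq2, hoxa1a turned to 0.32 under both, hoxa3a to 0.21 under both and hoxc11b to 0.31 and 0.32. With totals without mitochondrial and ribosomal RNA hoxa1a was at 0.044 and hoxc11b at 0.033. Under 2% hoxc11b was at 0.17 and the second hoxc10a ID at -0.11, and at or over 2% hoxa1a was at 0.11. None of these values passed the test. Without 1 library hoxa1a ran from -0.0997 to 0.017 and hoxc11b from -0.16 to 0.049. With TMM factors the log2 ratios of the sums were 0.13 for hoxaa, 0.14 for hoxab, -0.099 for hoxba, -0.62 for hoxbb, -0.12 for hoxca, 0.12 for hoxcb and -0.13 for hoxda, and 0.31, 0.083, 0.027 and 0.12 for paralog groups 9 to 12. From the most abundant transcript of each gene alone hoxaa was at -0.34. At or over 2% hoxba was at -0.27 and paralog group 9 at 0.061, and under 2% hoxca was at -0.64. Paralog group 9 was at 0.045 with totals without mitochondrial and ribosomal RNA. The causes were not tested beyond what the scaling itself sets.

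Leaving out a library also changed calls near the threshold. hoxb6a was no longer called without control 1, 2 or 3 or TP 8 (adjusted p 0.0102 to 0.0116), hoxc6a without control 2 (0.0106) and hoxd9a without 11 of the libraries. hoxa9a was called without control 1 or 6 or TP 2, 3 or 7, hoxa11a without control 1 or 7, hoxb8a without control 5 or 7 and hoxb2a without control 7 (adjusted p 0.00394 to 0.00909 in all). With the number in the group as a replicate block, 23 genes were lower and 1 higher, with a median of -0.40. The numbers follow the accession order only, and same-numbered libraries correlated between -0.17 and 0.30, over 0.1 in 4 of 8 cases, so a pairing is not shown. Of the members called, hoxb1a rests on 372 counts in TP and 194 in control libraries, and on fewer read pairs if both mates were counted. On halved counts 49 Hox genes could be tested, with 26 lower and 1 higher. There hoxb1a was at 0.95 (edgeR, adjusted p = 6.96e-04).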
